A study of Mus musculus with 3 samples.

Results

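In this series, 10 genes of mitochondrial fatty acid oxidation were followed in CD4 T cells cultured in 3 media. They were chosen by symbol (Cpt1a, Cpt2, Slc25a20, Acadm, Acadl, Acadvl, Hadha, Hadhb, Acaa2 and Acot2). All 10 had a row among the 23282 gene rows, and all 10 were among the 12770 rows with enough reads to test. The cells were taken from C57BL/6 mice (spleen and lymph nodes) and stimulated for 72 h with antibodies to CD3 and CD28 (2 µg/ml). CM is RPMI medium with fetal bovine serum. DM is RPMI without amino acids with dialyzed serum, in which small molecules have been reduced, and methionine was added at 30 µM in DM+Met. The study reports that DM itself still contained methionine, so DM+Met against DM is not a comparison of presence with absence. Each medium had 2 libraries of the 3′ ends of transcripts. The study describes them as biologically independent, but the labels do not say what they are, so p-values measure the spread between these libraries, which may be technical.

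Fatty acid oxidation shortens fatty acids inside the mitochondrion and feeds acetyl-CoA and electrons to respiration. A long-chain fatty acid is first joined to coenzyme A, then moved to carnitine by Cpt1a at the outer membrane, carried across the inner membrane by Slc25a20 and returned to coenzyme A by Cpt2. Each turn of the cycle then oxidizes, hydrates, oxidizes again and cleaves the chain. Acadvl, Acadl and Acadm start the turn on very long, long and medium chains, the trifunctional protein of Hadha and Hadhb and the thiolase Acaa2 complete it, and the thioesterase Acot2 releases free fatty acid from acyl-CoA in the matrix. Activated T cells are known to rely mostly on glycolysis, while memory and regulatory T cells make more use of fatty acid oxidation.

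In DM, Acadl fell by 1.68 on the log2 scale (3.21-fold lower than in CM) and Acot2 rose by 1.69 (3.23-fold higher). In DM+Met, Acadl was 3.27-fold lower and Acot2 7.08-fold higher than in CM. With all 6 libraries, the other 8 genes passed the test in no comparison. Thus 1 of the 10 genes was called higher and 1 lower in DM than in CM, where 7.8% of all tested rows were called higher and 9.07% lower.

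Depth was 8504916 to 12377254 reads per library. A single row, the ribosomal RNA precursor Rn45s, held 31.0% to 32.9% of reads in CM, 37.2% to 38.3% in DM, with 15.5% to 20.1% in DM+Met. The TMM factors, which rescale each library to the bulk of its genes, were 0.897 to 0.938 in CM and DM and 1.16 to 1.22 in DM+Met. The DM libraries correlated with each other at r = 0.919 across the tested genes, less than the pairs of CM (0.938) and DM+Met (0.973), and DM library 2 was closer to DM+Met library 1 (0.947) than to DM library 1. Each r is taken across genes, and genes are not replicates. All 10 CD4 T cell markers had reads in every library, with summed levels of 1880 to 1980 CPM in CM, 1998 to 2312 in DM, with 2016 to 2138 in DM+Met. Levels are in CPM, reads of a gene scaled to a common library size by TMM. A 3′ library counts a transcript once whatever its length, so CPM can be compared between genes. Fewer cells of a type and less RNA per cell cannot be told apart in such bulk libraries.

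The upstream sequences of the 2 genes that passed the test are shown because they differed in base composition. Promoters from RefSeq on GRCm38.p6 were examined for 9 of the 10 genes, and Acaa2 was not included. Each line holds the 250 bases before the annotated start, read 5′ to 3′ on the gene's strand, with every CG dinucleotide in capitals. The Acadl stretch is chr1:66863310-66863559 on the minus strand and the Acot2 stretch is chr12:83987611-83987860 on the plus strand.
Acadl: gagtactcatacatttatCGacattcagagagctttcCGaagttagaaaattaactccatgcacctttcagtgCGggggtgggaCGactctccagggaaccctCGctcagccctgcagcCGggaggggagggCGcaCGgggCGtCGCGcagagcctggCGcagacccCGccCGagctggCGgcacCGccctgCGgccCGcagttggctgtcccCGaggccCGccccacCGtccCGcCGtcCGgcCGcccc
Acot2: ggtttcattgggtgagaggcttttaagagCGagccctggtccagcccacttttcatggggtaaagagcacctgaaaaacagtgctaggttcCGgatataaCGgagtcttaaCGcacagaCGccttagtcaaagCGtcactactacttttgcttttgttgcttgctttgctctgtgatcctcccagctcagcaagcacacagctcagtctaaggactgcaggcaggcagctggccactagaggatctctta
Acadl had 25 CG dinucleotides, the most of the 9 genes, and 89.3% of 32851 RefSeq promoters had fewer. Acot2 had 6, the fewest of the 9 and equal to the median of all promoters. The hexamer AGGTCA, the core bound by many nuclear receptors, was searched on both strands from 250 bases before to 50 after each start. It was found for Cpt1a, Acadm and Acadvl, and in 16.3% of all promoters. The RefSeq window of Cpt1a (chr19:3323051-3323350) lies inside the gene as placed by GENCODE (start at chr19:3322334), so it is not upstream of that start. It was found neither for Acadl nor for Acot2. The repeat AGGTCANAGGTCA (0.0396% of all promoters) and TCAAGGTCA (0.423%) contain this hexamer and were found for none of the 9. A match of letters is a description and not a binding site.

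The carnitine shuttle was measured by 3 genes, and none of them passed the test with all libraries. On GRCm38 they lie at chr19:3322334-3385733 (Cpt1a, plus strand), chr9:108662088-108684641 (Slc25a20, plus) and chr4:107903981-107923610 (Cpt2, minus). Cpt1a, which forms acylcarnitine and sets the pace of long-chain entry, was at 9.22 and 30.7 CPM in CM, 33.7 and 44.1 in DM, with 28.4 and 31.6 in DM+Met. The 2 CM libraries differed more than any DM library did from CM library 2. DM differed from CM by 1.13 (SE 0.47, adjusted p = 0.126). It was 0.32 without CM library 1 (adjusted p = 0.563), while without CM library 2 it was 1.95 and was called (adjusted p = 0.0347). CM library 1 held 81 reads of Cpt1a and CM library 2 held 240. For DM+Met against CM the difference was 0.78 with all libraries (adjusted p = 0.303), -0.04 without CM library 1 (adjusted p = 0.968) and 1.60 without CM library 2 (adjusted p = 0.0451, called).

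Slc25a20, the carnitine-acylcarnitine carrier, was at 24.5 and 22.7 CPM in CM, 33.3 and 46.9 in DM, with 30.2 and 33.6 in DM+Met. Both libraries of DM and of DM+Met lay above both of CM. The difference was 0.72 in DM against CM (SE 0.29, adjusted p = 0.111) and 0.42 in DM+Met against CM (SE 0.29, adjusted p = 0.365). Cpt2, the inner membrane enzyme, had the lowest level of the 10 genes in every medium. It was at 5.69 and 1.54 CPM in CM, 3.47 and 2.30 in DM, with 7.71 and 7.90 in DM+Met, or 12 to 94 reads per library. The CM libraries enclosed those of DM, and the 2 DM+Met libraries were above all others. Cpt2 differed by 1.20 between DM+Met and DM (SE 0.62, adjusted p = 0.582), with a 95% interval from -0.19 to 2.58. Of the other carnitine palmitoyltransferases, Cpt1b had 0 to 49 reads per library and Cpt1c 0 to 28, too few to compare.

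Of the 3 acyl-CoA dehydrogenases only Acadl passed the test. All 3 are on the minus strand of GRCm38, at chr1:66830839-66863277 (Acadl), chr11:70010183-70015411 (Acadvl) and chr3:153922357-153944632 (Acadm). Acadl, the long-chain enzyme, was the most abundant of the 10 genes in CM. Its level was 123 and 129 CPM in CM, 34.0 and 43.7 in DM, with 43.2 and 33.0 in DM+Met. No library of DM or DM+Met reached the level of either CM library. DM differed from CM by -1.68 (SE 0.24, 95% interval -2.21 to -1.15, adjusted p = 0.00203). Acadl stayed called in all 18 alternative settings, with adjusted p from 3.2e-04 to 0.0454. Between DM+Met and CM the difference was -1.71 (SE 0.24, adjusted p = 0.00145), and without DM+Met library 2 it was -1.52 and no longer called (adjusted p = 0.0613). Between DM+Met and DM it was -0.03 (SE 0.24, adjusted p = 0.987), with an interval from -0.56 to 0.50. When libraries were scaled by their totals, this last difference was 0.33, where the median of all genes was 0.34.

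Acadvl, the very-long-chain enzyme of the inner membrane, was at 59.3 and 77.4 CPM in CM, 67.9 and 61.6 in DM, with 41.5 and 52.1 in DM+Met. CM and DM overlapped, and both DM+Met libraries lay below the other 4. Acadvl differed by -0.07 in DM against CM (SE 0.23, adjusted p = 0.877), by -0.47 in DM+Met against DM (SE 0.23, adjusted p = 0.570) and by -0.53 in DM+Met against CM (SE 0.23, adjusted p = 0.158). The last 500 bases of the Acadvl gene on the genome overlap an exon of the antisense gene Dvl2. The treatment of strand is not given in the sources used here, so reads of the pair cannot be told apart. Acadm, the medium-chain enzyme, was at 18.8 and 40.8 CPM in CM, 27.3 and 38.0 in DM, with 27.6 and 17.4 in DM+Met. The 3 media overlapped, and CM spanned the whole range of DM. Its differences were 0.21 in DM against CM (SE 0.41, adjusted p = 0.769) and -0.54 in DM+Met against DM (SE 0.41, adjusted p = 0.741). On the log2 scale, Acadl exceeded Acadm by 2.64 and 1.64 in CM, by 0.30 and 0.20 in DM, then by 0.63 and 0.89 in DM+Met. Relative to Acadvl, Acadl was 1.04 and 0.73 higher in CM, and in the other 4 libraries the difference of Acadl minus Acadvl ranged from -0.98 to 0.06.

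Hadha and Hadhb encode the alpha and beta subunits of the trifunctional protein, which carries out the last 3 steps of the turn on long chains. The genes start 86 bases apart and are read in opposite directions (GRCm38, chr5:30118304-30155162 on the minus strand and chr5:30155248-30184593 on the plus strand). Hadha was at 108 and 112 CPM in CM, 96.7 and 61.9 in DM, with 81.8 and 87.2 in DM+Met. Hadhb was at 23.8 and 17.7 CPM in CM, 23.5 and 36.6 in DM, with 21.9 and 19.0 in DM+Met. Hadha was below its CM libraries in all 4 others, whereas Hadhb overlapped between CM and each of the other media. In DM against CM, Hadha differed by -0.50 (SE 0.23, adjusted p = 0.162) and Hadhb by 0.50 (SE 0.35, adjusted p = 0.356). Without DM library 1 the Hadha difference was -0.82 and was called (adjusted p = 0.0492), and without DM library 2 it was -0.18 (adjusted p = 0.393). Hadha exceeded Hadhb by 2.13 and 2.60 on the log2 scale in CM, by 2.00 and 0.74 in DM, then by 1.86 and 2.14 in DM+Met. DM library 2 stood apart from the other 5 libraries in this difference. The last 500 bases of the Hadha gene on the genome overlap an exon of the antisense gene Garem2, listed under its older symbol Gareml. Gareml had 0 reads in 4 libraries, 26 in DM library 2 and 3 in DM+Met library 2.

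Acaa2, the mitochondrial thiolase that splits off acetyl-CoA, was at 27.4 and 38.0 CPM in CM, 36.6 and 45.7 in DM, with 30.7 and 33.1 in DM+Met. Its libraries overlapped between CM and DM. The difference was 0.33 in DM against CM (SE 0.28, adjusted p = 0.455) and -0.35 in DM+Met against DM (SE 0.28, adjusted p = 0.757).

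Acot2, the mitochondrial thioesterase, was near the bottom of the 10 genes in CM and second only to Hadha in DM+Met. It was at 9.11 and 9.22 CPM in CM, 41.1 and 24.6 in DM, with 64.8 and 77.7 in DM+Met. The 3 media did not overlap, in the order CM, DM, DM+Met. Acot2 was higher by 1.69 in DM than in CM (SE 0.32, 95% interval 0.97 to 2.41, adjusted p = 0.00779) and by 2.82 in DM+Met than in CM (SE 0.32, adjusted p = 5.36e-04). The step from DM to DM+Met was 1.13 (SE 0.32, interval 0.41 to 1.85), with an unadjusted p of 0.0059 and an adjusted p of 0.337 in limma, and was not called. It was called in none of 18 alternatives (adjusted p from 0.0693 to 1).

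The call of Acot2 in DM against CM was lost in 5 of the 6 fits with 1 library left out. The difference was 1.68 without CM library 1 (adjusted p = 0.0626), 1.70 without CM library 2 (0.0529), 1.33 without DM library 1 (0.0589), 1.69 without DM+Met library 1 (0.0540) and 1.69 without DM+Met library 2 (0.0563), each time not called. It was 2.05 without DM library 2 (adjusted p = 0.0365, called). Over these 6 fits the number of rows called in DM against CM was 541 to 1061, against 2154 with all libraries. With only CM and DM in the fit the adjusted p was 0.0685. Acot2 was called in DM+Met against CM in all 18 alternatives.

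Acot2 has close relatives in a cluster on chromosome 12 (GRCm38, Acot2 at chr12:83987861-83993873 and Acot1 at chr12:84009490-84018371, both on the plus strand). The coding sequences of Acot1, the cytosolic enzyme, and Acot2 were identical at 95.3% of 1236 aligned bases. In the last 500 transcript bases, where 3′ reads start, Acot2 shared 2 of 451 stretches of 50 bases with the predicted gene Gm13016 and Acot1 shared 0 of 451 with any other gene. Acot1 had 4 and 13 reads in CM and 0 reads in each library of DM and DM+Met, which allows up to 3 reads per library. These were too few to test or to compare between media.

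**Figure D1:**
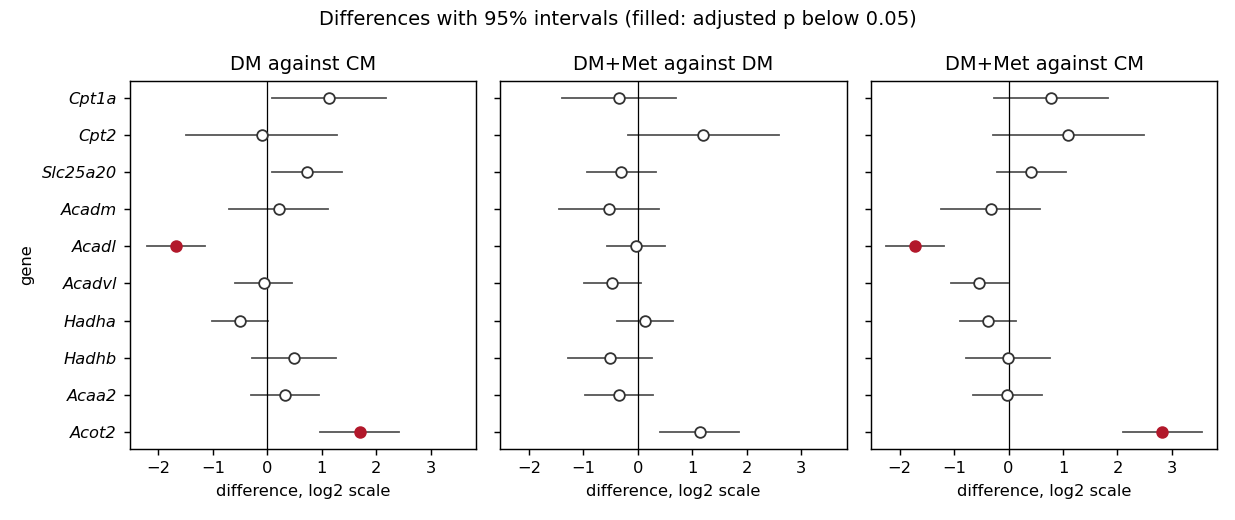
Difference between media on the log2 scale (horizontal axis) for each of the 10 genes (vertical axis) in the 3 comparisons, with 95% intervals from limma. Filled points passed an adjusted p of 0.05, which were Acadl and Acot2 in DM against CM and in DM+Met against CM, and no gene in DM+Met against DM.

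**Figure D2:**
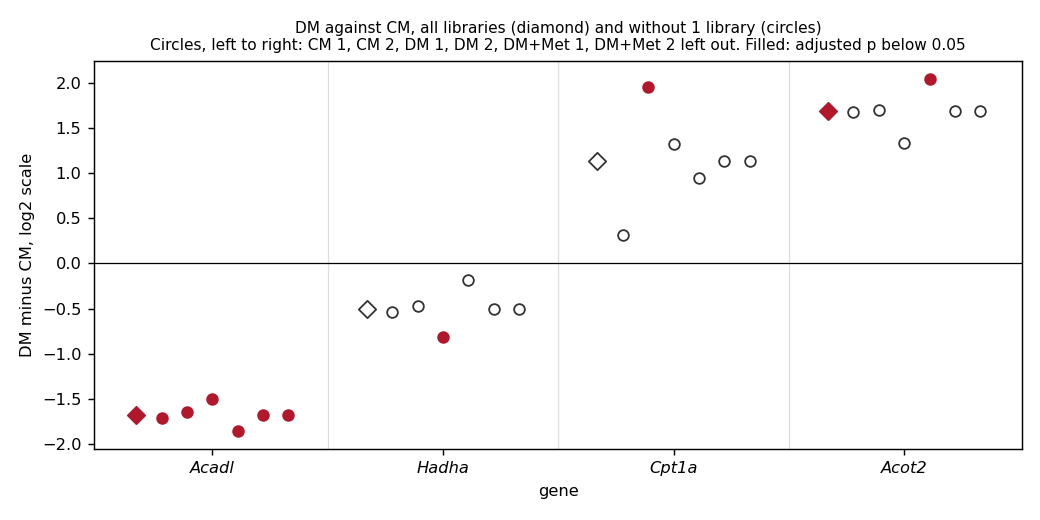
Difference between DM and CM on the log2 scale (vertical axis) for 4 genes (horizontal axis), with all libraries (diamond) and with each of 6 libraries left out (circles), filled where the adjusted p was below 0.05. Acadl was filled throughout, Acot2 only with all libraries and without DM library 2, Cpt1a only without CM library 2 and Hadha only without DM library 1.

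Across the 10 genes, DM against CM gave 6 positive and 4 negative differences, and 8 and 2 when libraries were scaled by totals without Rn45s, where Cpt2 and Acadvl changed sign. The 2 DM libraries exceeded both of CM for 3 genes (Cpt1a, Slc25a20 and Acot2) and below for 2 (Acadl and Hadha). Over all tested rows 27.9% lay above and 26.2% below. The median difference of the 10 genes was 0.27 and that of all tested rows was 0.07.

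In DM+Met against DM none of the 10 genes was called, and 1, Acot2, had an unadjusted p under 0.05. Of all rows, 5 were called higher (0.0392%) and 2 lower (0.0157%), with 1238 at an unadjusted p under 0.05. Both DM+Met libraries lay above both DM libraries for Acot2 and Cpt2, and below them for Cpt1a, Acadvl, Hadhb and Acaa2. The background was 20.4% above and 20.6% below. The median of the 10 genes was -0.33 against 0.01 for all rows. On library totals it was 0.03 against 0.34, with 7 positive and 3 negative differences in place of 3 and 7, so the signs of the small differences between DM+Met and DM depend on the scaling.

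Against CM, DM+Met had 1 of the 10 genes called higher (6.92% of all rows) and 1 lower (8.36%). For 3 genes (Cpt2, Slc25a20 and Acot2) both DM+Met libraries lay above both CM libraries, and for 3 (Acadl, Acadvl and Hadha) below. The background was 32.2% above and 28.7% below. The median of the 10 genes was -0.01 against 0.06 for all rows, and 0.37 against 0.41 on library totals. DM+Met against CM shares the CM libraries with DM against CM, and the DM+Met libraries with DM+Met against DM, so the 3 sets of values are not independent.

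The summed level of the 10 genes was 408 and 480 CPM in CM, 398 and 405 in DM, with 378 and 393 in DM+Met. The make-up of that sum differed more than the sum itself. Acadl held 30.1% and 26.9% of it in CM, 8.54% and 10.8% in DM, with 11.4% and 8.41% in DM+Met. Acot2 held 2.23% and 1.92% in CM, 10.3% and 6.08% in DM, with 17.1% and 19.8% in DM+Met. In CM the order of mean levels began with Acadl (126 CPM), Hadha (110) and Acadvl (68.3), with no overlap between neighbours, and ended with Acot2 (9.17) and Cpt2 (3.62), which did not overlap either. The 6 genes from Acaa2 to Acot2 in this order overlapped with their neighbours. In DM, Hadha (79.3) and Acadvl (64.7) led and overlapped, and Acadl was 6th of 10 (38.8), in a run of 7 genes from Acaa2 (41.1) to Hadhb (30.0) in which each overlapped the next. In DM+Met the order was Hadha (84.5), Acot2 (71.2) and Acadvl (46.8), of which Hadha and Acot2 each lay above the next without overlap.

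**Figure D3:**
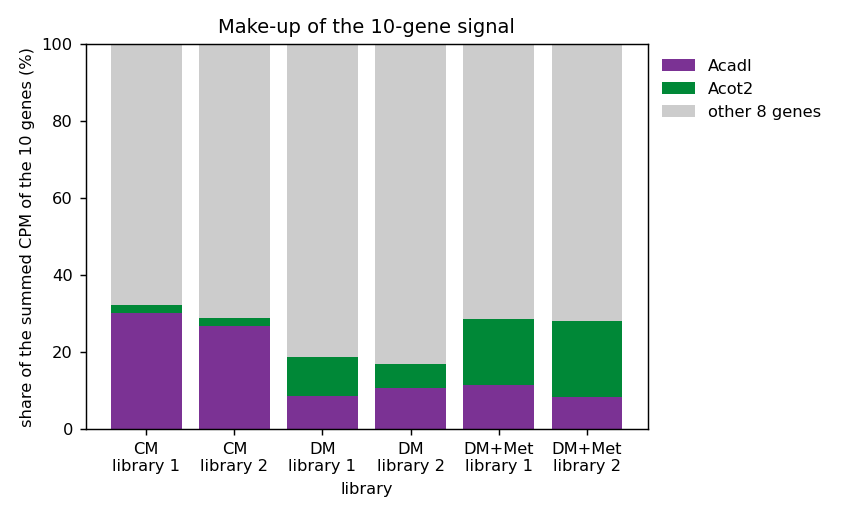
Share of the summed CPM of the 10 genes (vertical axis, percent) held by Acadl, Acot2 and the other 8 genes in each library (horizontal axis). Acadl took 26.9% and 30.1% in CM and 8.41% to 11.4% elsewhere, and Acot2 took at most 2.23% in CM and 17.1% and 19.8% in DM+Met.

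The neighbouring steps were described with lists of other genes, which partly overlap. In DM against CM no list had more genes called higher than lower. The list counts below stand beside 9.07% of all tested rows called lower and 7.8% called higher in that comparison. Around entry into the mitochondrion, 2 of 14 tested genes fell and none was called higher. They were Dbi, the acyl-CoA binding protein, from 235 and 199 CPM in CM to 80.2 and 71.9 in DM (adjusted p = 0.00261), and Fabp5, a fatty acid binding protein, from 70.5 and 68.1 to 39.9 and 30.1 (adjusted p = 0.0219). The acyl-CoA synthetases were not called in DM against CM, and the list median was -0.09. In DM+Met against CM 2 of the 14 were lower, Dbi and the synthetase Acsl5, where 8.36% of all tested rows were lower. The list median was -0.41. Acsl5, named after its values were seen, differed by -0.93 there (adjusted p = 0.0487) and by -0.83 in DM against CM (adjusted p = 0.0668). Among 21 other enzymes of mitochondrial oxidation 1 fell, the enoyl-CoA isomerase Eci2 (45.0 and 52.9 CPM in CM, 27.5 and 18.2 in DM, adjusted p = 0.0412), and the median was 0.05 beside 0.07 for all rows. None of 6 genes for electron transfer from the dehydrogenases was called in DM against CM, where 2154 of all rows were called, and 2 further genes of that list were not matched. Its median was -0.17.

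Of 8 other tested thioesterases 1 fell. Acot7, a thioesterase for long-chain acyl-CoA, was at 112 and 130 CPM in CM, 40.0 and 37.3 in DM, with 46.7 and 46.9 in DM+Met. Its change in DM was -1.62 (SE 0.21, adjusted p = 0.00141), of a size like that of Acot2 and in the opposite direction. The list median was -0.54. Of 15 genes of peroxisomal oxidation, the parallel pathway for very long and branched chains, 1 fell. This was Pecr, a peroxisomal enoyl-CoA reductase with 92 and 53 reads in CM but 0 and 21 in DM (adjusted p = 0.0307). Pecr was named after its values were seen, and the list median was 0.23.

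The list of malonyl-CoA and fatty acid synthesis, which oppose oxidation, had 6 of 16 genes that fell and none called higher, with a median of -0.69. Those that fell were desaturases, elongases and a citrate carrier, and none of Acaca, Acacb, Mlycd, Acly and Fasn was called. The stearoyl-CoA desaturases fell furthest, Scd2 from 406 and 429 CPM to 29.1 and 27.9 and Scd1 from 66.4 and 77.5 to 7.44 and 5.65 (adjusted p = 1.62e-05 and 0.00128). Elovl1, Elovl6, Fads1 and the citrate carrier Slc25a1 also fell, by 1.31, 1.03, 1.81 and 1.33 on the log2 scale. Acaca, which makes malonyl-CoA in the cytosol, differed by -1.14 (SE 0.48, adjusted p = 0.130). Acacb is the isoform whose malonyl-CoA inhibits Cpt1 at the mitochondrion. It had 0 reads in both CM libraries, 32 and 18 in DM, with 6 and 0 in DM+Met. Only its DM libraries reached the 0.946 CPM needed for testing. Its adjusted p of 0.0629 in DM against CM is therefore not independent of that filter. Mlycd, which breaks malonyl-CoA down, differed by -0.09 (SE 0.66, adjusted p = 0.946).

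The regulators gave 1 gene higher and 2 lower of 23, with a median of 0.14. Lpin1, a phosphatidate phosphatase and coactivator of PPAR alpha, fell from 103 and 112 CPM to 31.6 and 36.9 (adjusted p = 0.00428). Named after their values were seen, Pparg had 74 and 37 reads in CM but 3 and 0 in DM (adjusted p = 0.0281), and the mitochondrial deacetylase Sirt3 had 0 reads in both CM libraries but 77 and 21 in DM (adjusted p = 0.0490). Ppara is the receptor that drives many oxidation genes in liver. It had 0 and 2 reads in CM, then 81 and 12 in DM, with 1 and 0 in DM+Met, so most of its reads lay in DM library 1. Only the DM libraries reached the 0.946 CPM needed for testing, so its adjusted p of 0.0916 is not independent of that filter. Ppard was at 23.5 and 26.1 CPM in CM and 10.5 and 16.3 in DM (-0.87, SE 0.38, adjusted p = 0.147). Prkaa1, the catalytic AMPK subunit, differed by -0.63 (SE 0.30, adjusted p = 0.174), and Ppargc1a had 0 to 14 reads per library.

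Of 12 other PPAR targets 4 fell and 1 rose, with a median of -0.11. Hilpda (from 558 and 684 CPM to 347 and 306), Ucp2, Pltp and Scd1 fell. Lpl, lipoprotein lipase, rose from 0 and 10 reads in CM to 342 and 357 in DM (adjusted p = 9.78e-04). In the lipolysis list 1 of 12 rose and 1 fell, with a median of -0.09. Abhd5, the coactivator of triglyceride lipase, had 8 and 9 reads in CM but 80 and 91 in DM (adjusted p = 0.0235, named after its values were seen). Dgat1, which makes triglyceride, fell from 175 and 157 CPM to 36.6 and 33.5 (adjusted p = 3.39e-04).

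Genes that use acetyl-CoA or ketone bodies were measured downstream. Oxct1, which activates ketone bodies, fell (adjusted p = 0.00512), as did the ketone body dehydrogenase Bdh1 (adjusted p = 0.0490). Oxct1 was at 141 and 177 CPM in CM, 78.5 and 66.0 in DM, with 96.2 and 106 in DM+Met. In the tricarboxylic acid cycle with pyruvate dehydrogenase, 6 of 23 genes fell (Cs, Idh3b, Suclg1, Sdhc, Fh1 and Mdh2) with a median of -0.57, and none was called higher. Cs, citrate synthase, was at 139 and 151 CPM in CM, 62.6 and 71.8 in DM, with 70.5 and 65.1 in DM+Met. Among 15 tested genes of the fatty acid list that the study plotted from these same libraries, which is therefore not independent evidence, Acot2 rose and Bdh1 fell, and 5 of the 15 were among the 10 genes above. The median of that list was -0.16.

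No gene of any of these lists was called in DM+Met against DM, where 0.0392% of all tested rows were called higher and 0.0157% lower. In DM+Met against CM the oxidation enzymes outside the 10 genes gave 3 genes lower and 1 higher of 21, where 8.36% of all tested rows were lower and 6.92% higher. Those lower were Hadh (-1.03, adjusted p = 0.0152) and Acads (-0.97, adjusted p = 0.0467), the dehydrogenases for short chains, and Eci2 (-1.49, adjusted p = 0.0116). Acadsb, for branched short chains, was higher (1.30, adjusted p = 0.0486). Hadh, Acads and Acadsb were named after their values were seen, and their differences in DM against CM were -0.54 (adjusted p = 0.140), -0.58 (0.185) and 0.81 (0.177).

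**Figure D4:**
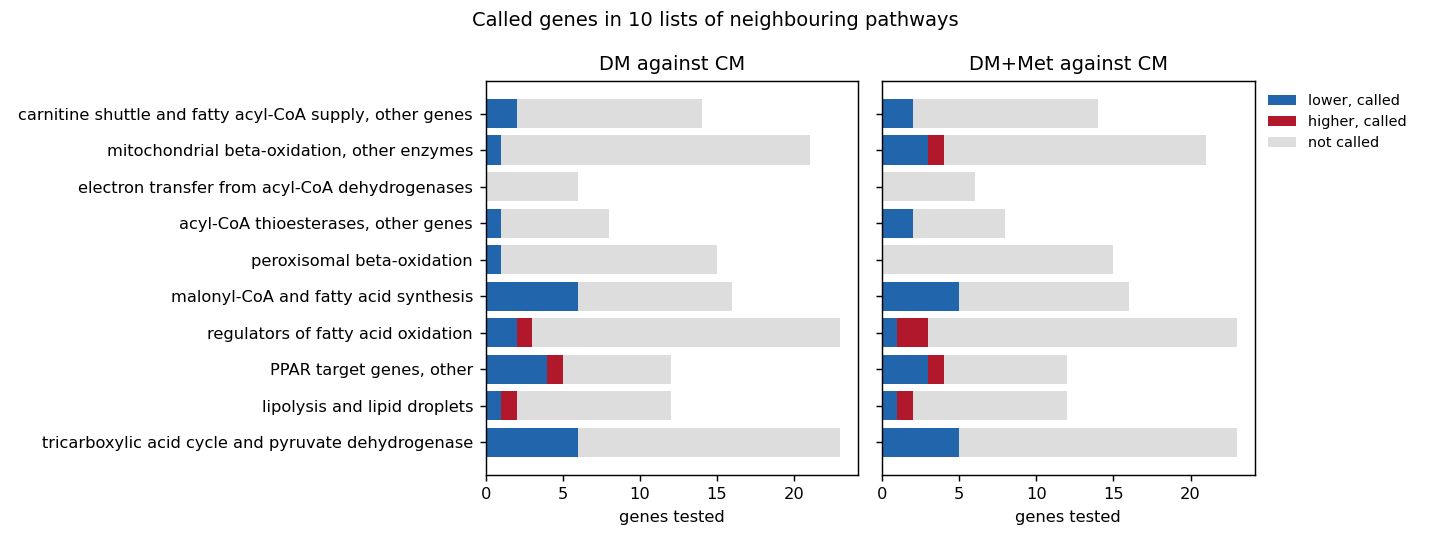
Number of tested genes (horizontal axis) in 10 lists of neighbouring pathways (vertical axis), split into those called lower, called higher and not called, in DM against CM (left) and DM+Met against CM (right). Fatty acid synthesis had 6 of 16 genes lower in DM and the tricarboxylic acid cycle 6 of 23, and no list had more than 2 genes called higher.

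Markers of other cells were measured beside these changes. Of 6 CD8 T and NK cell markers, 4 had reads in each CM library, 5 in each DM library and 6 in each DM+Met library. Their summed level was 73.4 to 82.4 CPM in CM, 40.0 to 42.8 in DM, with 35.9 to 49.8 in DM+Met. This sum was lower in the same media as Acadl, but not every marker was. Outside CM, Cd8a counts (82 to 184) stayed below its CM counts (301 and 320). The same held for Cd8b1 (95 to 250, against 282 and 259). By contrast, Klrb1c was higher outside CM (17 to 45 reads) and Ncr1 was higher in DM+Met (8 and 10). Counts of Eomes and Klrd1 overlapped between CM and each other medium. Klrb1c had 0 reads in both CM libraries, and Ncr1 0 or 1 read in the CM and DM libraries. Of 10 myeloid markers 8 to 10 had reads. They summed to 28.9 to 36.9 CPM in CM, 39.4 to 64.0 in DM, with 41.6 to 55.9 in DM+Met. The myeloid sum was higher in the same media as Acot2 and Lpl, but not every marker was. Lyz2 (50 to 85 reads outside CM, against 3 and 15) and Cd68 (112 to 222, against 92 and 54) were higher. S100a8 was lower in DM (3 and 15 reads, against 52 and 20 in CM) and overlapped CM in DM+Met (11 and 57). Counts of the other myeloid markers overlapped CM in DM or in DM+Met. Itgam and Adgre1 were at 0 reads in CM library 2 and DM library 1, and Adgre1 also in DM+Met library 1. Of 8 B cell markers 7 had reads, summing to 74.0 to 91.9, 106 to 109 and 70.2 to 86.8 CPM in the 3 media, and Pax5 was at 0 reads in all 6 libraries. The part of these cells and of the Rn45s share in the changes of Acadl, Acot2 and the lists was not tested.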

How the data were processed

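RNA of 6 libraries was made into QuantSeq 3′ libraries from 500 ng of total RNA per sample. The submitters' processing notes name Bowtie2, bedtools and mm10, and their versions and roles, the annotation and the strand setting are not given in the sources used here. The deposited values are log2 of TMM-scaled CPM plus 1, to 3 decimals. The values themselves showed base 2 and the added 1, and their equal steps gave whole reads (within 0.1 read for at least 99.8932% of values up to 300 reads per library). A floor of 3 reads, which a count of 0 allows, is a log2 value of 0.323 to 0.469, and floors cover counting error only. GEO holds 1 sample per medium, and its 2 numbered files were taken as 2 libraries. Their reads differed beyond sampling noise, with a chi-square per degree of freedom of 19.0, 35.9 and 18.2 in CM, DM and DM+Met.

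Rows with at least 0.946 CPM (10 reads at the median depth) in 2 libraries and 15 reads in total were tested, without regard to medium. A linear model was fitted to the deposited log2 values of all 3 media (lmFit, then eBayes with intensity trend, of limma 3.58.1 under R 4.3.3, 3 residual and 6.87 prior degrees of freedom). Every adjusted p is two-sided, from this limma fit, by the Benjamini-Hochberg method over 12770 rows, with a threshold of 0.05. Because 1 is added to the CPM, the log2 differences understate changes of genes with few reads. The script was tested on simulated data.

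The 10 genes and the gene lists were chosen with earlier results of these data known. Named from the lists were genes called in DM against CM or DM+Met against DM with a mean of at least 5 CPM, up to 6 per list by lowest adjusted p, and Acot1, Cpt1b, Cpt1c, Acaca, Acacb, Mlycd, Prkaa1, Ppara, Ppard and Ppargc1a. Positions are from GENCODE M21 (GRCm38, the assembly of mm10) and promoters from RefSeq (GRCm38.p6). Alternatives were other scalings, pseudocounts, filters and variance settings, limma-voom on the recovered reads, a block for the file number, fits of 2 media and leaving out each library. The result of 1 gene list is not reported here.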

Additional observations from a re-analysis of the deposited data

How the results depend on the processing

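Depth was ample for 9 of the 10 genes, and Cpt2, with 12 to 94 reads, was the least precise (SE 0.62). With 2 libraries per medium the SE of the 10 genes was 0.23 to 0.62 on the log2 scale. Leaving out a library leaves a medium with 1 library, which is assumed to vary like the others. Across genes, deviations from the medium means showed almost no correlation between libraries of equal file number (between -0.03 and 0.005). This cannot show whether equal numbers share a source, which the labels do not say. A replicate block gave 1947, 7 and 1797 called rows, in the order DM against CM, DM+Met against DM and DM+Met against CM, and the same members.

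In DM against CM, 2154 rows were called, 1329 without an intensity trend and 795 with only the 2 media, which left 1 of the 2 called members. Leaving out 1 library gave 541 to 1061 rows and 1 to 2 members. In DM+Met against DM, 7 rows were called, 55 on library totals, 13 with a pseudocount of 5, 2 without a filter, 27 where each library needed 10 reads, 17 where the mean log2 value had to reach 2, 21 with limma-voom, 14 with a robust prior, and 0 without a trend, with only the 2 media and in all leave-one-out fits (0 to 0). In DM+Met against CM, 1952 rows were called, 1265 without a filter, 944 without a trend and 268 to 1622 with 1 library left out, with 1 to 3 members. On library totals 76.3% of those calls were higher, against 45.3% with TMM. Without Rn45s in the totals it was 57.4%, and 59.5% against 46.2% in DM against CM. The median of all rows moved to 0.34 in DM+Met against DM and 0.41 in DM+Met against CM on library totals, and to 0.21 and 0.18 in DM against CM and DM+Met against CM without Rn45s.

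Sign changes were confined to differences that were not called with all 6 libraries. Without Rn45s in the totals, Cpt2 was 0.0264 and Acadvl 0.0891 in DM against CM, and Hadhb 0.11 and Acaa2 0.10 in DM+Met against CM. On library totals, Cpt1a was 0.00271, Slc25a20 0.0525, Acadl 0.33 and Acaa2 0.00689 in DM+Met against DM, and Acadm 0.0505, Hadha 0.0139, Hadhb 0.37 and Acaa2 0.36 in DM+Met against CM. With 1 library left out, DM against CM ranged from -0.80 to 0.60 for Cpt2, -0.33 to 0.75 for Acadm and -0.26 to 0.12 for Acadvl. DM+Met against DM ranged from -0.22 to 0.16 for Acadl and -0.19 to 0.44 for Hadha. DM+Met against CM ranged from -0.035 to 1.60 for Cpt1a, -0.87 to 0.21 for Acadm, -0.21 to 0.19 for Hadhb and -0.25 to 0.21 for Acaa2. The cause was not tested.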
